A study of Mus musculus with 5 samples.

Results

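The interferon-stimulated and RNA-sensing genes examined here were 34 genes of mouse, taken from a list of symbols that covers both subunits of the type I interferon receptor, 5 transcription factors, 6 RNA sensors and their regulators, and 21 effectors of the OAS, IFIT, IFITM, GTPase and ISG15 groups and beside them. Each gene was found in the deposited tables by the RefSeq identifiers of its transcripts, and the values of its transcripts were summed, which gave 34 of 24843 genes. The values were FPKM, fragments scaled by transcript length and sequencing depth, a unit that allows levels to be compared between genes. It does not correct for differences in RNA composition between samples. Summed over all transcripts, FPKM was 442905 and 446393 in the NSC samples and 385485 to 399970 in the STO samples, so small differences between the cell types depend on the normalization. Poly(A) RNA of 5 samples was sequenced, 2 of neural stem cells (NSCs) and 3 of STO cells. The NSCs were primary cells at passages 5 to 8, labelled as strain C57BL/6 and grown on poly-l-ornithine and laminin in neural medium with EGF, bFGF, heparin and B27. STO cells are a thioguanine- and ouabain-resistant line of SIM mouse embryonic fibroblasts that serves as a feeder layer for germline stem cells. They were past passage 30 and were grown in DMEM with fetal bovine serum. They were also labelled as C57BL/6, although the line is described as derived from SIM mice, so a shared strain is not certain. The labels name no treatment with interferon or a virus. The cell types differ in origin, passage, medium, serum and perhaps strain, and these cannot be told apart. Nothing in the labels says that the replicates came from separate cultures, so the p-values measure the spread between these samples, which may be technical.

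Interferons are secreted proteins by which cells warn each other of viruses. Type I interferons bind the receptor IFNAR1-IFNAR2, whose kinases JAK1 and TYK2 activate transcription factors of the cytoplasm, STAT2 among them. A complex that holds STAT2 and IRF9 switches on genes that carry an interferon-stimulated response element (ISRE), while signals of interferon gamma act mainly through the gamma-activated site (GAS). The products of the induced genes detect viral RNA, block its translation, degrade it or hold virus particles at membranes, and many cells keep a basal level of them without infection.

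The labels held against markers of the cell types. The 6 NSC markers, among them Sox2, Nes, Olig2 and Fabp7, summed to 3811 to 4028 FPKM in NSCs and to 0.0442 to 0.0724 FPKM in STO cells, and the 6 fibroblast markers, among them Col1a1, Col1a2 and Col3a1, to 0.981 to 1.32 FPKM in NSCs and 1057 to 1128 FPKM in STO cells. Immune cells express many of the members at a high level. The 8 markers of microglia and macrophages summed to 2.18 to 3.10 FPKM in NSCs and 1.10 to 1.26 FPKM in STO cells, mostly from Cd68, while Tyrobp and Adgre1 were at 0 in every sample, and the 5 lymphocyte markers reached at most 0.0282 FPKM in NSCs and 0.0377 FPKM in STO cells. Among markers of other cells that an NSC culture can hold, the 3 astrocyte markers summed to 64.5 FPKM in both NSC samples and to 0.150 to 0.219 FPKM in STO cells, the 4 neuron markers to 16.3 to 17.8 FPKM against 7.84 to 8.57 FPKM, and the 4 endothelial markers to 0.452 to 0.520 FPKM against 0.133 to 0.237 FPKM. Most of the astrocyte sum of NSCs was Aldh1l1, at 47.0 and 45.7 FPKM, with Gfap at 15.9 and 16.9 FPKM. The neuron sum of STO cells was almost all Tubb3, which overlapped between the cell types, while Dcx, Rbfox3 and Snap25 were at or near 0 there. The part of these other cells in the results was not tested, and in bulk RNA fewer cells of a type and less RNA per cell cannot be told apart. The intervals deposited with the FPKM values implied 15223341 to 22271895 fragments per sample.

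STO cells held more of most members than NSCs. Every STO sample lay above both NSC samples for 30 of the 34 members and below both for 3 (Mx2, Gbp3 and Rsad2), and only Oas3 overlapped. Of the 17645 genes above 0 in any sample, 37.4% lay wholly above and 41.2% wholly below in this way. The median difference, STO minus NSC in the mean of log2(FPKM + 1), was 1.35 over the 34 members and -0.0041 over the 17645 genes. On this scale the change of genes with low values is understated.

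The difference was tested with limma on log2(FPKM + 1) in the 12277 genes whose mean reached 1 FPKM in either cell type, and p-values were adjusted by the Benjamini-Hochberg method over all of them, with calls at 0.05. The 2 cell types differ so widely that 85.7% of these genes passed, 41.9% as higher and 43.7% as lower in STO cells. Of the members, 27 were tested, 26 were called higher and 1, Gbp3, was called lower. A difference of at least 1 on the log2 scale was found for 21 members as higher and for 0 as lower, where 17.1% and 21.3% of the tested genes had one. However, 14 of the 27 were tested only because they reached 1 FPKM in STO cells, and a gene of that kind had to differ: 96.9% of the 885 such genes were called higher, and 80.1% were higher by at least 1. These 14 were Irf7, Dhx58, Zbp1, Trim25, Oasl1, Oasl2, Ifit1, Ifit3, Ifitm1, Gbp2, Isg15, Usp18, Parp14 and Xaf1. Of the 13 members with at least 1 FPKM in both cell types, 12 were called higher and 1 lower, beside 43.7% and 38.9% of the 9824 genes at that level, and 8 were higher and 0 lower by at least 1, beside 14.1% and 12.5%. The other 7 members (Ifih1, Oas1a, Oas2, Oas3, Mx1, Mx2 and Rsad2) stayed under 1 FPKM in both cell types and were not tested.

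**Figure D1:**
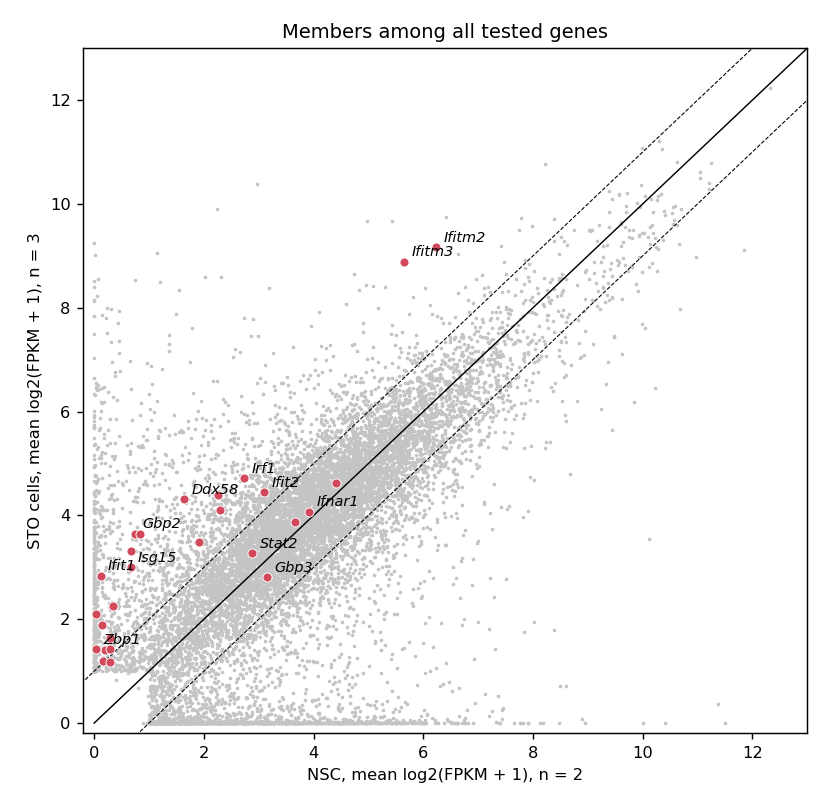
Mean log2(FPKM + 1) of each tested gene in NSCs (horizontal, n = 2) and STO cells (vertical, n = 3), with all 12277 genes in grey and the 27 tested members in red; the solid line marks equal levels and the dashed lines a difference of 1. Of the red points, 26 lie above the solid line, most of them at the left edge where NSC levels are low, and Gbp3 lies below it.

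The promoters of the members carry the letters by which interferon factors are known to bind. Windows from 250 bases before to 50 bases after the transcript start were given for 27 members in RefSeq's GRCm38.p6 annotation, and each of their 31 windows was found once, letter for letter, in mm9, the build of the deposited files. The ISRE core was searched as GAAA-NN-GAAA on both strands (TTTC-NN-TTTC when read on the other), where N is any base, and GAS as TTC-NNN-GAA, which reads the same on both. An ISRE core lay in the windows of 15 of the 27 members (55.6%) and of 1079 of 27025 genes (3.99%), and GAS in 8 members (29.6%) and 9.55% of genes. The motifs overlapped each other in 2 members, Bst2 and Ifitm3. The presence of an ISRE core did not divide the members by their difference between the cell types. It was held by 9 of the 17 members with a window that were higher in STO cells by at least 1, among them Isg15, Ifit1, Ifit3, Gbp2, Ddx58 and Ifitm2, and by 6 of the other 10, which were Stat2, Ifih1, Oas1a, Oas3, Gbp3 and Rsad2. A match of letters is a description of the sequence and does not show that a factor was bound. The 200 bases before the start are printed below in mm9 for Isg15 (chr4:155574928-155575127 on the minus strand), Ifit1 (chr19:34715179-34715378 on the plus strand), Ifit3 (chr19:34657819-34658018 on the plus strand) and Gbp2 (chr3:142283427-142283626 on the plus strand), which were all higher in STO cells, for Gbp3 (chr3:142222808-142223007 on the plus strand) and Rsad2 (chr12:27141318-27141517 on the minus strand), which were lower although they hold the same core, and for Irf1 (chr11:53583316-53583515 on the plus strand), where GAS stands without an ISRE core. They are written 5′ to 3′ along the gene, and capitals mark the ISRE core, or GAS in Irf1.
Isg15: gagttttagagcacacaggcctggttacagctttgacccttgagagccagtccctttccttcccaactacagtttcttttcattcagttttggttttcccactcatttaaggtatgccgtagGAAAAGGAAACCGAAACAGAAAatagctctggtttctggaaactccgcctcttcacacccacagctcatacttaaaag
Ifit1: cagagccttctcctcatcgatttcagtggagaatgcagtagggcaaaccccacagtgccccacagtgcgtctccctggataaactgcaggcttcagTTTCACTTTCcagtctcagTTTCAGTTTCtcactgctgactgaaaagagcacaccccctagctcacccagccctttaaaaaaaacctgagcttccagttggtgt
Ifit3: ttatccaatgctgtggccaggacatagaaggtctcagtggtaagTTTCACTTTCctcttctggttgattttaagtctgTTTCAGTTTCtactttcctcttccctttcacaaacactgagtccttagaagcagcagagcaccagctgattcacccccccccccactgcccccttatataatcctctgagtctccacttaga
Gbp2: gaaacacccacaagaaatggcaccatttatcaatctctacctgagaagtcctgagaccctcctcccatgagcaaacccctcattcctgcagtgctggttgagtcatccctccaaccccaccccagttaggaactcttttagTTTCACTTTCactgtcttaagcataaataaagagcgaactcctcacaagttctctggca
Gbp3: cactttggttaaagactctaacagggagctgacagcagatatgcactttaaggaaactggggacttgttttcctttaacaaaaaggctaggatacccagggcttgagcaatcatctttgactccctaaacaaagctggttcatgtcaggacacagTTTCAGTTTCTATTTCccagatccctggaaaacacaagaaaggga
Rsad2: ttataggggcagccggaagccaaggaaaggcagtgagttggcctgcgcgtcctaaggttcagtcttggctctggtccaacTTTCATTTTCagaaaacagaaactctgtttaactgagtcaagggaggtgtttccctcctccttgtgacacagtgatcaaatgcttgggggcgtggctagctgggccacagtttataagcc
Irf1: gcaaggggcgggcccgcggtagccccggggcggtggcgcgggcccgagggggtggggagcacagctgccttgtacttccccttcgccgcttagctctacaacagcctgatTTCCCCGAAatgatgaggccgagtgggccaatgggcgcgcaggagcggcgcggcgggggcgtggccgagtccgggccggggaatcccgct
Isg15 held 3 overlapping cores, whose first bases lay at -78, -72 and -66 from the start. Ifit1 held a pair at -104 and -85, Ifit3 a pair farther out at -156 and -122, and Gbp3 an overlapping pair at -45 and -39, while Gbp2 held 1 at -59 and Rsad2 held 1 at -120. In Irf1 the GAS began at -90. The printed Gbp3 sequence lies before the transcripts NM_018734 and NM_001355403. The window at the start of NM_001289493, the most abundant Gbp3 transcript in every sample, held no ISRE core.

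**Figure D2:**
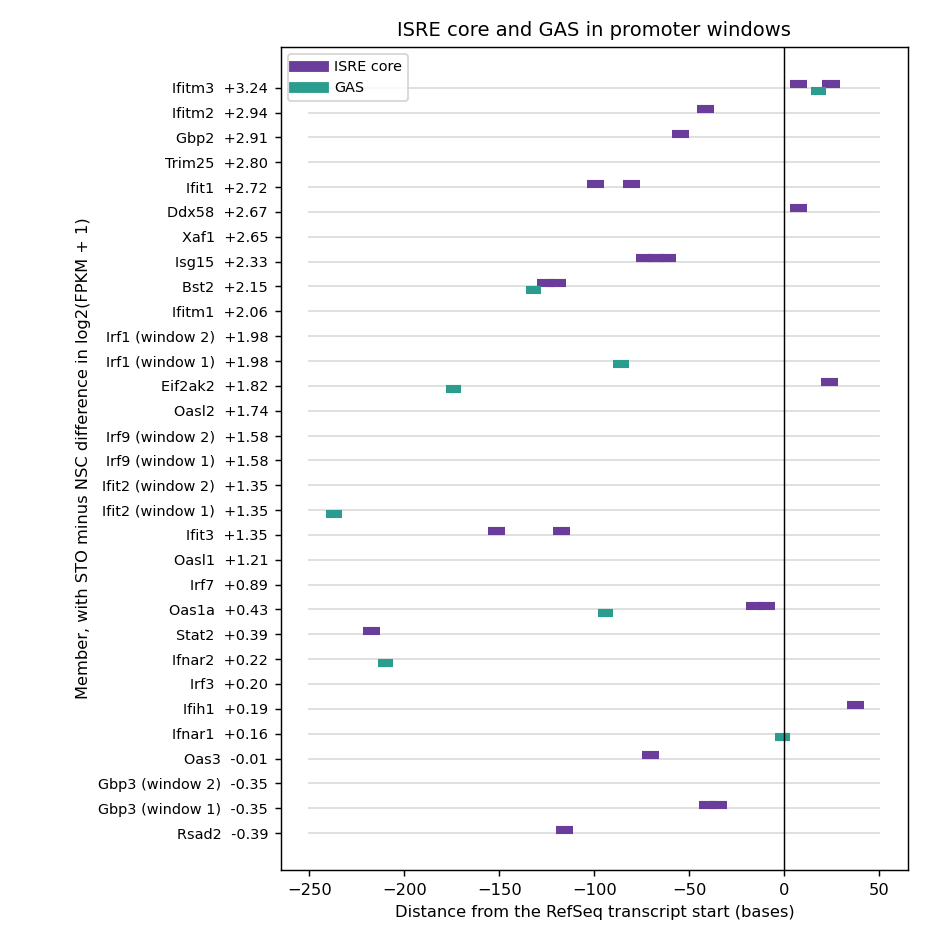
Positions of the ISRE core (purple) and GAS (green) in the promoter windows of 27 members, in bases from the RefSeq transcript start (0); members run from the largest STO minus NSC difference in mean log2(FPKM + 1), printed beside the name, at the top to the lowest at the bottom. ISRE cores appear both near the top, as in Ifitm2 (2.94) and Isg15 (2.33), and at the bottom, as in Rsad2 (-0.39).

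The genes of the receptor differed little between the cell types. Ifnar1, the receptor subunit that holds TYK2, stood at 13.8 and 14.4 FPKM in the NSC samples and at 16.6, 15.6 and 15.4 FPKM in the STO samples. Ifnar2, the subunit that binds interferon first and tightest, stood at 18.4 and 22.1 FPKM and at 23.3, 22.9 and 24.6 FPKM. The groups did not overlap for either gene, but the gaps were small. The log2 difference was 0.16 (SE 0.057, adjusted p = 0.041) for Ifnar1 and 0.22 (SE 0.085, adjusted p = 0.049) for Ifnar2. Neither call was stable: Ifnar1 passed the threshold in 5 and Ifnar2 in 3 of 14 alternative analyses, and the adjusted p reached 0.15 and 0.28.

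The sum over Ifnar2 hides a difference between its transcripts. The gene lies at chr16:91373028-91405834 (mm9), and its short transcript, NM_001110498, ends at base 91394288 of the chromosome, before the last exons of the long transcript, NM_010509, which ends at 91405832. In GENCODE, the transcript that ends within a few bases of the short form codes for 744 bases, and those that end within a few bases of the long form code for 1539 and for 741 bases. The short form is known to encode a receptor without the signalling tail. It was the major form everywhere, with 15.2 and 16.8 FPKM in NSCs and 14.9, 13.3 and 16.0 FPKM in STO cells, and the groups overlapped. The long form stood at 3.14 and 3.85 FPKM in NSCs and at 8.47, 7.92 and 8.60 FPKM in STO cells, well apart. As a share of all Ifnar2 FPKM, the long form made up 17.1% and 17.5% in NSCs and 36.3%, 34.6% and 35.0% in STO cells. A further transcript of about the same extent, NM_001347258, was given 1.43 FPKM in NSC replicate 2 and 1.69 FPKM in STO replicate 2 and was listed at 0 in the other 3 samples. When all transcripts were fitted singly, a step added after the data were seen, 38.1% of 16257 transcripts were called higher and 39.0% lower in STO cells. The long form was higher in STO cells by 1.06 (SE 0.090, adjusted p = 3.8e-04) and the short form differed by -0.12 (SE 0.095, adjusted p = 0.31). Cufflinks divides fragments between overlapping transcripts by a model, so these levels are estimates.

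**Figure D3:**
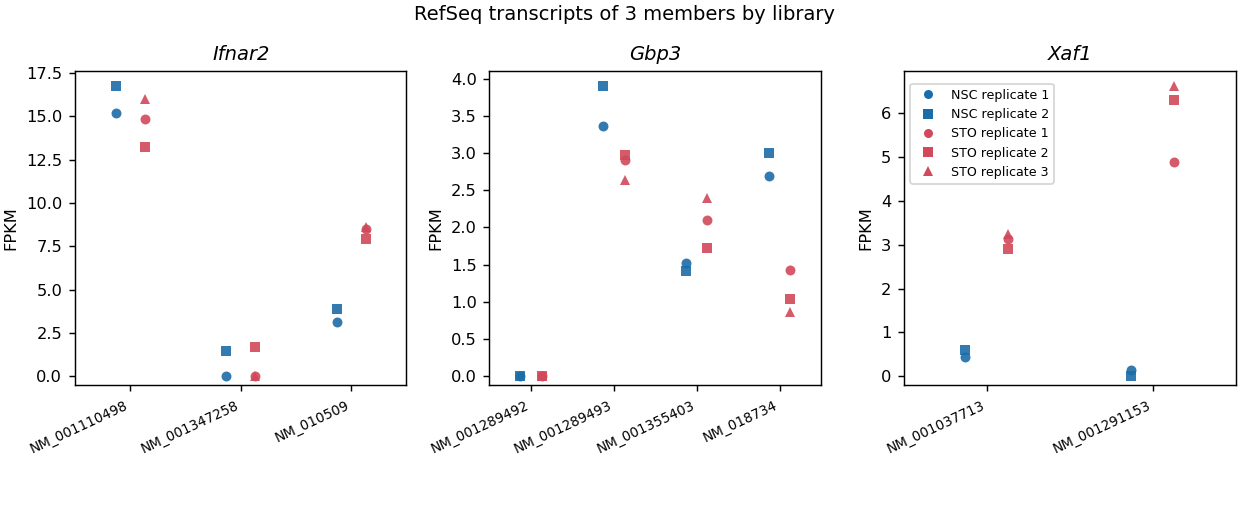
FPKM of each RefSeq transcript of Ifnar2, Gbp3 and Xaf1 in the 5 samples (blue, NSC; red, STO; the symbol gives the replicate). The long Ifnar2 transcript NM_010509 is at 3.14 and 3.85 FPKM in NSCs and at 7.92 to 8.60 FPKM in STO cells while NM_001110498 overlaps, and the Gbp3 transcripts NM_018734 and NM_001355403 lie in opposite orders between the cell types.

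All 5 transcription factors were called higher in STO cells, as were 41.9% of all tested genes, by very different amounts. Irf1, an early factor downstream of interferon gamma that binds ISRE-like sites, had the largest difference on the log2(FPKM + 1) scale, from 5.19 and 6.16 FPKM in NSCs to 26.5, 23.8 and 25.7 FPKM in STO cells, and its log2 difference was 1.98 (SE 0.083, adjusted p = 1.5e-06). Irf9, the DNA-binding partner of STAT2, followed with 2.90 and 2.61 FPKM against 10.4, 9.89 and 10.5 FPKM (1.58, SE 0.061, adjusted p = 1.0e-06). Both were several times higher in every STO sample than in either NSC sample. Stat2, a signal carrier of the interferon receptors, stood at 6.24 and 6.50 FPKM against 8.29, 8.57 and 9.22 FPKM, a ratio of means of 1.36 and a log2 difference of 0.39 (SE 0.062, adjusted p = 0.0011). Irf7, which amplifies interferon production and is itself interferon-induced, was low everywhere, with 0.198 and 0.250 FPKM in NSCs and 1.26, 1.04 and 1.53 FPKM in STO cells (0.89, SE 0.091, adjusted p = 1.3e-04). The added 1 weighs on such low values, and the ratio of means was 5.70 for Irf7 and 4.46 for Irf1. Irf7 reached the filter through STO cells alone.

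Irf3, the factor that virus sensors activate directly and that is made without interferon, differed little. Its levels were 11.8 and 11.6 FPKM in NSCs and 13.5, 13.3 and 14.2 FPKM in STO cells (0.20, SE 0.053, adjusted p = 0.011). The difference rested on a non-coding transcript, NR_045611, that was listed at 0 in both NSC samples and at 2.33, 1.83 and 1.38 FPKM in the STO samples. The coding transcript NM_016849 stood at 11.8 and 11.6 FPKM and at 11.2, 11.5 and 12.8 FPKM, which overlapped, and its difference was 0.0065 (adjusted p = 0.94 when fitted as the highest transcript of the gene). With the replicate number as a block the summed gene also missed the threshold (0.18, adjusted p = 0.061).

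Of the RNA sensors and their regulators, Ddx58 and Trim25 stood out. Ddx58 encodes RIG-I, which detects RNA with a 5′ triphosphate, and stood at 2.09 and 2.16 FPKM in NSCs and at 17.8, 19.5 and 19.7 FPKM in STO cells. Trim25, the ubiquitin ligase that helps to activate RIG-I, stood at 0.783 and 0.798 FPKM and at 12.3, 11.6 and 10.5 FPKM. Both were far apart between the cell types and tight within them, with log2 differences of 2.67 (SE 0.063, adjusted p = 9.9e-08) and 2.80 (SE 0.073, adjusted p = 1.6e-07). Trim25, unlike Ddx58, was tested only through its level in STO cells, where 96.9% of such genes were called higher.

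Ifih1, which encodes MDA5, the sensor of long double-stranded RNA, did not share that level. It stood at 0.242 and 0.310 FPKM in NSCs and at 0.386, 0.463 and 0.532 FPKM in STO cells, from 40 to 94 fragments per sample, and was not tested at the filter used. The ratio of Ddx58 to Ifih1 was therefore 8.64 and 6.96 in NSCs and 46.1, 42.1 and 37.0 in STO cells. Dhx58, the third helicase of the family (LGP2), which regulates the other two, had 0.0923 and 0.132 FPKM against 1.19, 1.28 and 1.39 FPKM (1.04, SE 0.052, adjusted p = 3.6e-06), and so reached the filter through STO cells alone.

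Eif2ak2 encodes PKR, the kinase that stops translation on sensing double-stranded RNA, and was present in both cell types. It stood at 4.42 and 3.41 FPKM in NSCs and at 15.3, 16.4 and 17.0 FPKM in STO cells (1.82, SE 0.099, adjusted p = 5.3e-06). Zbp1, a sensor of Z-form nucleic acid that can start cell death, had 0.0407 FPKM in NSC replicate 1 and was listed at 0 in NSC replicate 2, and stood at 1.45, 1.44 and 2.25 FPKM in STO cells (1.40, SE 0.13, adjusted p = 8.5e-05). STO replicate 3 lay above the other two for Zbp1, and all 3 lay above the NSC samples. Zbp1 reached the filter through STO cells alone.

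The enzymes of the OAS family make the messenger that activates RNase L, and 3 of the 5 genes were nearly silent. Oas1a was listed at 0 in both NSC samples and had 0.282, 0.307 and 0.462 FPKM in STO cells, from 12, 15 and 30 fragments. Oas2 did not exceed 0.149 FPKM in any sample. Oas3, the only member whose groups overlapped, did not exceed 0.0202 FPKM. The OAS-like genes were higher. Oasl1, known to hold back the translation of Irf7, stood at 0.135 and 0.164 FPKM in NSCs and at 1.82, 1.58 and 1.56 FPKM in STO cells (1.21, SE 0.058, adjusted p = 2.9e-06). Oasl2 stood at 0.122 and 0.0918 FPKM and at 2.71, 2.58 and 2.80 FPKM (1.74, SE 0.049, adjusted p = 2.2e-07). Both passed the filter through STO cells alone and lie 11.0 kb apart on chromosome 5.

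The IFIT proteins bind foreign RNA ends and block their translation. The 3 genes examined lie on chromosome 19 in the order Ifit2, Ifit3 and Ifit1, with another gene of the family between Ifit3 and Ifit1. How fragments shared between genes of this family were divided was not tested. All 3 IFIT members were higher in STO cells, but the ratios between the cell types differed. Ifit2 was already well expressed in NSCs, with 6.72 and 8.47 FPKM, and stood at 20.5, 20.8 and 21.1 FPKM in STO cells (1.35, SE 0.091, adjusted p = 1.5e-05). Ifit3 had 0.159 and 0.291 FPKM against 2.02, 2.09 and 2.24 FPKM (1.35, SE 0.064, adjusted p = 2.8e-06). Ifit1 had 0.0844 and 0.0880 FPKM, from 7 and 8 fragments, against 5.81, 5.72 and 7.07 FPKM (2.72, SE 0.089, adjusted p = 4.6e-07). The log2 differences of Ifit2 and Ifit3 are alike although the ratios of their means were 2.74 and 9.42, because 1 was added to values that were low for Ifit3. For Ifit1 the ratio of the means was 71.9, and with 0.1 added in place of 1 its log2 difference was 5.07. Ifit2 exceeded Ifit1 by 79.7 and 96.2 times in the NSC samples and by 3.53, 3.63 and 2.99 times in the STO samples. Ifit1 and Ifit3 passed the filter through STO cells alone.

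The IFITM genes, whose products sit in membranes and hinder the entry of enveloped viruses, were the most abundant members. Ifitm2 stood at 76.4 and 72.2 FPKM in NSCs and at 576, 554 and 600.4 FPKM in STO cells. Ifitm3, also known as Fragilis, stood at 47.7 and 50.7 FPKM and at 490.0, 446 and 481 FPKM. Every STO sample was several times above the NSC samples for both, and the log2 differences were 2.94 (SE 0.065, adjusted p = 7.2e-08) and 3.24 (SE 0.067, adjusted p = 5.5e-08). They made up 58.4% and 56.4% of the summed FPKM of the 34 members in the NSC samples and 81.2%, 80.7% and 81.1% in the STO samples. In STO cells only 83 of the 10709 genes with a mean of at least 1 FPKM stood at or above the mean of Ifitm2, itself included, and 99 at or above that of Ifitm3.

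Ifitm1 lies between these genes on chromosome 7, 11.5 kb from Ifitm2 and 39.8 kb from Ifitm3, but was far lower. It was listed at 0 in NSC replicate 1, had 0.0413 FPKM in NSC replicate 2, and stood at 3.37, 3.11 and 3.32 FPKM in STO cells (2.06, SE 0.051, adjusted p = 1.2e-07). Ifitm1 reached the filter through STO cells alone. Members of this family are similar in sequence, and how shared fragments were divided between them was not tested. Bst2 encodes tetherin, which holds budding virus particles on the cell surface, and stood at 4.23 and 3.33 FPKM in NSCs and at 24.2, 17.1 and 19.8 FPKM in STO cells (2.15, SE 0.15, adjusted p = 2.0e-05). Its spread within STO cells was wide, with an SD of 3.62 FPKM about a mean of 20.4 FPKM (n = 3), and its groups remained apart.

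The interferon-induced GTPases differed in direction. Gbp2, a guanylate-binding protein that attacks the vacuoles of intracellular pathogens, stood at 0.622 and 0.721 FPKM in NSCs and at 10.5, 11.6 and 12.5 FPKM in STO cells (2.91, SE 0.080, adjusted p = 2.0e-07). Gbp2 reached the filter through STO cells alone. Gbp3, its relative 47.5 kb away on chromosome 3, stood at 7.58 and 8.32 FPKM and at 6.44, 5.74 and 5.89 FPKM, and was the one member called lower (-0.35, SE 0.070, adjusted p = 0.0032). The ratio of Gbp3 to Gbp2 was 12.2 and 11.5 in NSCs and 0.613, 0.493 and 0.472 in STO cells, so the more abundant of these neighbours was Gbp3 in each NSC sample and Gbp2 in each STO sample. Within Gbp3, the transcript NM_018734 fell from 2.70 and 3.00 FPKM to 1.42, 1.04 and 0.863 FPKM (-0.87, SE 0.13, adjusted p = 0.0032 in the fit of single transcripts). The transcript NM_001355403 went from 1.52 and 1.41 FPKM to 2.10, 1.73 and 2.40 FPKM, and did not pass the threshold (0.31, SE 0.11, adjusted p = 0.055).

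Mx1 and Mx2, dynamin-like GTPases that block viruses and lie 73.2 kb apart on chromosome 16, were opposite and exclusive. Mx1 was listed at 0 in both NSC samples and had 0.578, 0.402 and 0.668 FPKM in STO cells, from 21, 15 and 36 fragments. Mx2 had 0.236 and 0.336 FPKM in NSCs, from 17 and 27 fragments, and was listed at 0 in all 3 STO samples. Both rows carry RefSeq identifiers of non-coding transcripts (NR_003520 and NR_003508), and both genes are known to be defective in common laboratory strains. Without a filter on low values, limma called 33.5% of 17645 genes higher and 37.1% lower, and gave adjusted p-values of 8.0e-04 for Mx1 and 3.4e-04 for Mx2.

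Isg15, a ubiquitin-like protein that is joined to other proteins after interferon, stood at 0.463 and 0.729 FPKM in NSCs and at 7.10, 7.06 and 6.85 FPKM in STO cells (2.33, SE 0.080, adjusted p = 5.7e-07). Usp18, the protease that removes ISG15 and also blocks signalling at IFNAR2, stood at 0.323 and 0.131 FPKM and at 1.68, 1.90 and 1.48 FPKM (1.13, SE 0.093, adjusted p = 4.2e-05). Isg15 was tight among the STO samples, with an SD of 0.134 FPKM (n = 3), and both genes passed the filter through STO cells alone.

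The remaining effectors were split. Xaf1, a pro-apoptotic protein that counteracts XIAP, stood at 0.579 and 0.603 FPKM in NSCs and at 8.03, 9.19 and 9.89 FPKM in STO cells (2.65, SE 0.086, adjusted p = 4.4e-07). Its transcript NM_001291153 supplied 25.4% and 0% of the gene in the NSC samples, where the gene rested on 35 and 51 fragments, and 61.0%, 68.5% and 67.1% in the STO samples. Parp14, a mono-ADP-ribosyltransferase, stood at 0.272 and 0.268 FPKM and at 3.70, 3.66 and 3.93 FPKM (1.91, SE 0.049, adjusted p = 1.5e-07). Xaf1 and Parp14 both passed the filter through STO cells alone. Rsad2 encodes viperin, which makes a nucleotide that ends viral RNA chains, and ran the other way, with 0.521 and 0.751 FPKM in NSCs and 0.187, 0.337 and 0.223 FPKM in STO cells. Its groups did not overlap, and without a filter on low values it was lower in STO cells (-0.39, adjusted p = 0.0075).

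**Figure D4:**
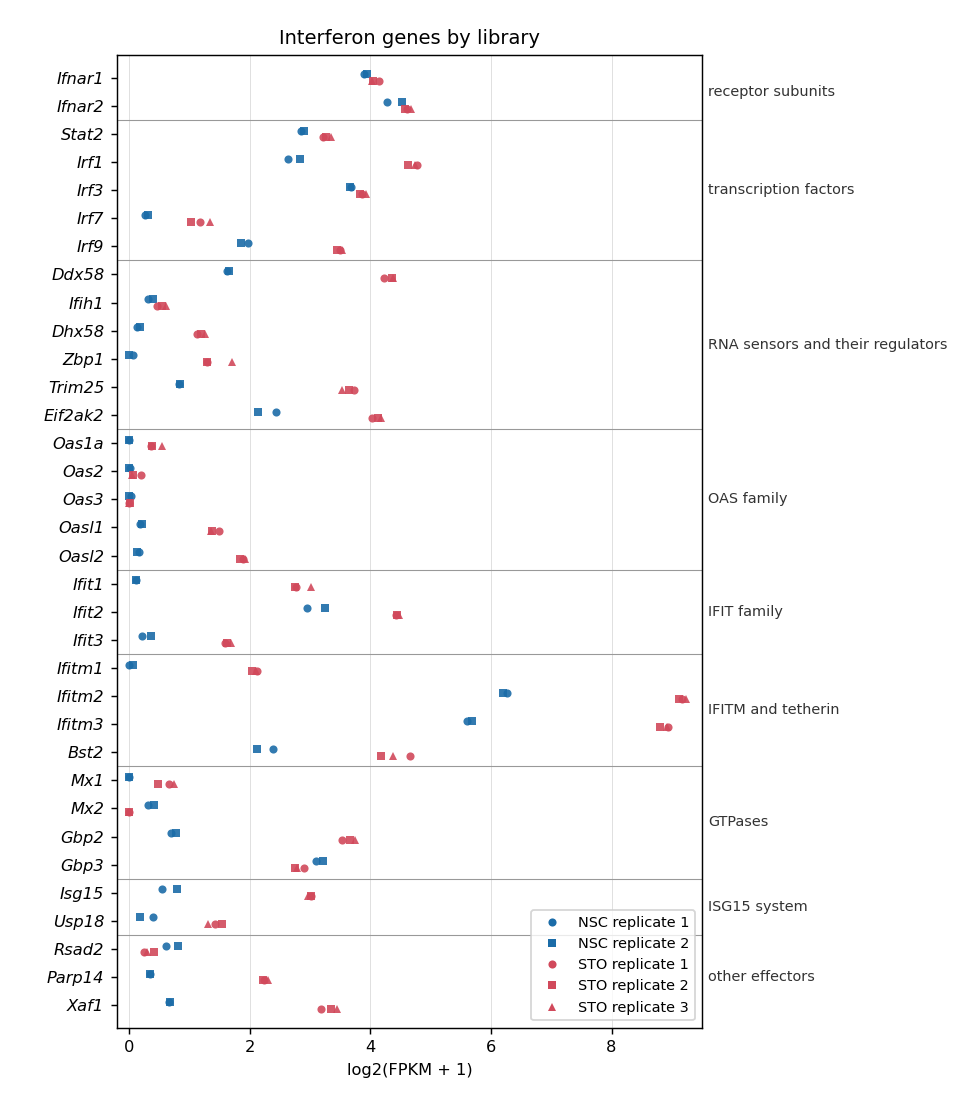
log2(FPKM + 1) of each of the 34 members in the 2 NSC samples (blue) and the 3 STO samples (red), grouped by role. Ifitm2 and Ifitm3 lie farthest to the right, STO points lie to the right of NSC points for 30 members, and the order is the opposite for Mx2, Gbp3 and Rsad2.

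Across the tested members, the difference ran from -0.35 for Gbp3 to 3.24 for Ifitm3. Of the genes with at least 1 FPKM in both cell types, Ifitm3, Ifitm2, Ddx58, Bst2, Irf1, Eif2ak2, Irf9 and Ifit2 were higher by 1 or more, whereas Stat2, Irf3, Ifnar1 and Ifnar2 differed by 0.39 or less. STO replicate 3 was the highest STO sample for 17 of the 27 tested members and STO replicate 2 for 1, while 35.6% and 24.8% of all tested genes were highest in these samples. The median SD of log2(FPKM + 1) among STO samples was 0.071 for the tested members and 0.063 for all tested genes.

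**Figure D5:**
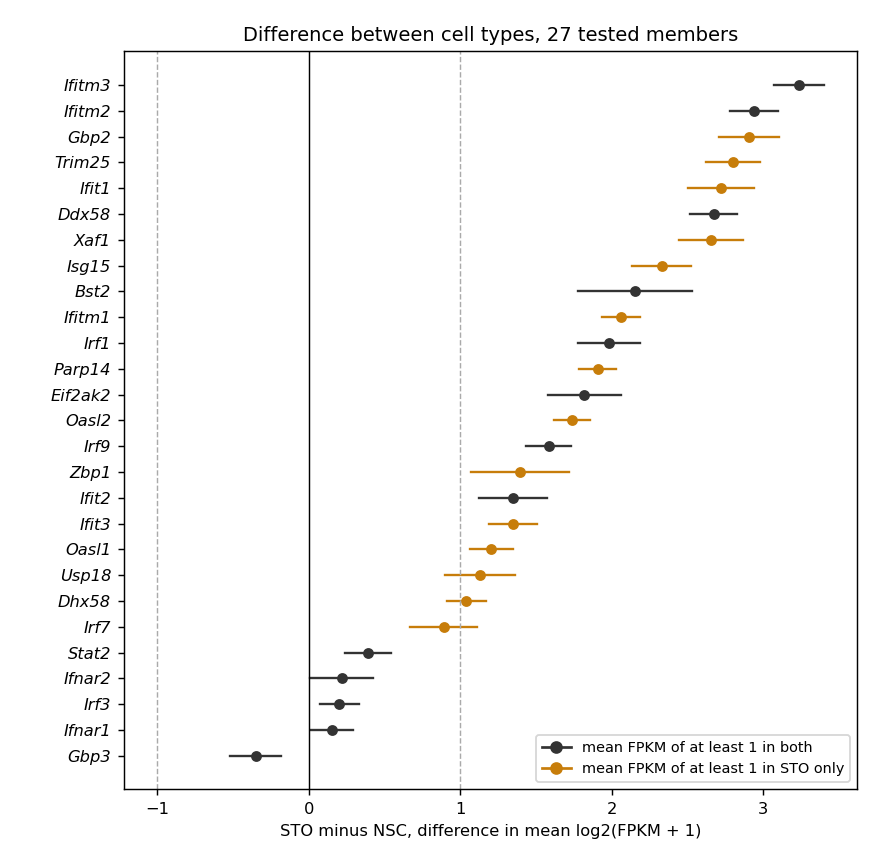
STO minus NSC difference in mean log2(FPKM + 1) for the 27 tested members, as points with 95% confidence intervals from limma (n = 2 and 3); black members had at least 1 FPKM in both cell types and orange members in STO cells alone, and dashed lines mark a difference of 1 in either direction. The intervals of Ifnar1 and Ifnar2 end close to 0, and that of Gbp3 lies wholly below it.

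The rest of the pathway was followed in 83 further genes. No interferon was seen at a level that could be tested: of 11 ligand genes, 8 were listed at 0 in all 5 samples, Ifnb1 among them, and the other 3 (Ifnk, Ifne and Ifnz) rested on at most 3 fragments in a sample. Of the 83 genes, 59 were tested, 47 were called higher and 7 lower in STO cells, and 5 did not pass, where 41.9% and 43.7% of all tested genes were called higher and lower. Of the 59, 18 were tested only through their level in STO cells, where 96.9% of all genes were called higher, and nothing is read from these. Of the 39 with at least 1 FPKM in both cell types, 29 were called higher and 5 lower, beside 43.7% and 38.9% of all genes at that level. By role, and among genes at that level in both, 5 of 6 receptors and kinases were called higher and 0 lower, 2 of 5 signal factors higher and 2 lower, 4 of 4 inhibitors higher, 9 of 13 sensors and adaptors higher and 2 lower, and 9 of 11 further interferon-stimulated genes higher and 1 lower.

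The kinases of the receptor differed from each other. Jak1 stood at 18.8 and 18.4 FPKM in NSCs and at 104, 113 and 114 FPKM in STO cells (2.51, SE 0.061, adjusted p = 1.1e-07). The deposited intervals of Jak1 implied 1331 and 1370 fragments in NSCs and 1973, 2037 and 2110 in STO cells. These fragment numbers rose far less than the FPKM values, so the size of the Jak1 difference is uncertain. The reason was not tested. Tyk2 had 3.07 and 3.67 FPKM against 3.33, 3.45 and 3.69 FPKM, which overlapped, and the 95% interval of its difference ran from -0.15 to 0.23 (adjusted p = 0.63).

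Of the adaptors and DNA sensors, Mavs, the mitochondrial adaptor on which RIG-I and MDA5 act, was level at 15.1 and 16.1 FPKM in NSCs and 15.9, 14.6 and 15.7 FPKM in STO cells, and its 95% interval ran from -0.17 to 0.13 (adjusted p = 0.77). Cgas, the sensor of cytosolic DNA, stood at 1.45 and 1.53 FPKM and at 6.25, 6.61 and 6.24 FPKM (1.56, SE 0.053, adjusted p = 5.6e-07). Sting1, the adaptor of cGAS, stood at 5.11 and 4.93 FPKM and at 14.4, 14.9 and 15.2 FPKM (1.39, SE 0.053, adjusted p = 9.4e-07). Both DNA-sensing genes were thus higher in every STO sample, while the adaptor of RNA sensing overlapped.

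The largest rises among these further genes were of Ifi204, a nuclear DNA sensor of the HIN-200 family, Trex1, a DNA exonuclease that limits cGAS, and Trim30a, a regulator of innate signalling. All of these were tested only through their level in STO cells, where 96.9% of such genes were called higher, so nothing is read from their calls. Ifi204 was at 0.0554 FPKM and 0 in NSCs and at 22.4, 24.1 and 24.5 FPKM in STO cells (4.59, SE 0.063). Trex1 was listed at 0 in both NSC samples and stood at 12.5, 10.6 and 12.8 FPKM in STO cells, and Trim30a was listed at 0 in both NSC samples and at a mean of 11.6 ± 0.42 FPKM (SD, n = 3) in STO cells. The largest falls were of Nlrx1, a mitochondrial regulator of antiviral signalling (-1.15, SE 0.042, adjusted p = 7.3e-07), Cmpk2, a mitochondrial nucleotide kinase (-1.11, SE 0.073, adjusted p = 1.4e-05), and Gbp7, a guanylate-binding protein (-0.80, SE 0.072, adjusted p = 6.7e-05). Gbp7 stood at 5.49 and 5.46 FPKM in NSCs and at 2.71, 3.02 and 2.48 FPKM in STO cells. It reached 1 FPKM in both cell types, but Nlrx1 and Cmpk2 did so in NSCs alone, so their direction was nearly set by the filter.

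The genes that were lower in STO cells included neighbours of each other. Cmpk2 lies 12.8 kb from Rsad2 on chromosome 12 and had 1.75 and 2.16 FPKM in NSCs against 0.389, 0.412 and 0.301 FPKM in STO cells, the same direction as Rsad2. Gbp7 lies 9.89 kb from Gbp3, and both were called lower, whereas Gbp2, on the far side of Gbp3, was called higher. Whether the neighbours share a control was not tested.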

How the data were processed

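RNA-seq libraries of 2 NSC and 3 STO samples were made with a stranded mRNA kit. Per the study's methods and the submitters' processing notes, the authors aligned the reads to mm9 with HISAT2 and computed FPKM values with Cufflinks 2.2.1 on RefSeq transcripts. The authors deposited, for each of 40201 transcripts, the FPKM value and the bounds of its confidence interval. No read counts were used, and the fragments behind a value were estimated here from the width of that interval, taken as 2 SD on each side. Such fragment numbers are estimates and not read counts. Neither they nor the FPKM intervals cover the spread between samples. All columns of per-sample FPKM values were used.

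Identifiers were matched to symbols through a RefSeq table of GRCm38.p6, used for names only; 99.4% of transcripts matched. FPKM values were summed per symbol, and coordinates are those of the files in mm9 (1-based). NSC and STO samples were compared on the log2(FPKM + 1) scale, without covariates, by the linear models of limma 3.58.1 under R 4.3.3, with empirical Bayes variances that follow a mean trend, for genes with a mean of at least 1 FPKM in either group. Adjusted p-values are by Benjamini-Hochberg over all genes fitted. The script was checked on simulated data. Alternatives changed the pseudocount (0.1), the filter, the normalization, the variance trend, the replicate block and the transcripts, and left out each replicate; single transcripts were fitted after the data were seen. Promoter windows came from RefSeq. Python 3.11.15 with pandas 2.3.3 and numpy 2.4.6 was used for tables and matplotlib 3.10.9 for plots.

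All 34 members were named. Of 83 further pathway genes, Jak1, Tyk2, Mavs, Sting1, Cgas and Ifnb1 were named, with the 3 largest rises and the 3 largest falls among genes that passed the test with groups that did not overlap; 1 more gene is not reported here. The members and the lists were chosen with earlier results of these data known. Of the list, 1 gene (Rnf213) had no row under its symbol and was not analysed here. Hi-C and other assays of the study were not used here.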

Additional observations from a re-analysis of the deposited data

How the results depend on the processing

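Among the 26 members called higher, Ifnar1, Ifnar2 and Irf3 missed the threshold under some alternatives in which they were tested. Irf7 and Dhx58 were no longer tested when a mean of at least 1 FPKM over all samples was asked, nor was Irf7 with the highest transcript of each gene. Of 382 values over members and alternatives, 21 lost the call, 1 reversed and 360 were unchanged. The unchanged values include 1 for each of the 7 members not tested in the main fit, which had no call to keep. Most genes passed under these alternatives, so the counts below are to be read beside those of all genes. With a pseudocount of 0.1, 5110 of 12277 genes were called higher and 5323 lower. Without a filter the numbers were 5912 and 6551 of 17645, and with the highest transcript 4999 and 5111 of 12188. Median ratio normalization gave 5004 and 5576 of 12277, and quantile normalization 5445 and 5050. Members called higher numbered 25 with a pseudocount of 0.1, 28 without a filter on low values, 24 with a mean of at least 1 FPKM over all samples, 24 with median ratio or quantile normalization, 22 with the highest transcript of each gene and 24 to 25 when 1 replicate was left out. Members called lower were 3 without a filter on low values (Gbp3, Mx2 and Rsad2) and 1 under the other alternatives and when 1 replicate was left out. Members higher by at least 1 numbered 20 to 22 throughout. Pathway genes called higher numbered 44 to 46 and those called lower 6 to 8 when 1 replicate was left out. Ifnar2 turned to -0.12 with its highest transcript, NM_001110498, and of 19 transcripts of members with several, NM_001355403 of Gbp3 (0.31) and NM_001355262 of Ifit2 (-0.42) also ran against their genes. For the last, the value was 2.76 FPKM in STO replicate 1 and 0 in the other 2. Tyk2, which did not pass, ran from -0.058 without NSC replicate 1 to 0.14 without NSC replicate 2, and Mavs from -0.062 without NSC replicate 1 to 0.015 without STO replicate 2 and 0.022 without NSC replicate 2; Tyk2 passed with quantile normalization (0.22, adjusted p = 0.042 in limma) and Mavs with its highest transcript (-0.58, adjusted p = 0.020 in limma). The causes were not tested. With a pseudocount of 0.1 the differences of members with low NSC values grew, as for Ifitm1 (4.82) and Zbp1 (3.91). The ISRE core was held by 40.7% of members with a window when 100 bases before the start were searched and by 44.4% with a longer core, and GAS by 14.8% in the shorter window.

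The labels number replicates in both groups, but nothing pairs them. Correlations of deviations from the group means were 0.0029 and 0.065 for equal numbers and -0.065 to 0.059 for different ones. With the replicate block, 23 members were called higher and 1 lower, with 45 pathway genes higher and 7 lower. Of all 12277 genes fitted with the block, 4988 were called higher and 5249 lower. Ifnar1, Ifnar2 and Irf3 missed the threshold. Differences in genes at a few fragments, such as Oas2 and Oas3, were not detectable at this depth. With 2 and 3 samples, SDs are themselves uncertain.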

Other observations

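Outside the 34 members, 332 tested genes with a promoter window held an ISRE core and 9445 did not. Of those with the core, 84 (25.3%) were called higher in STO cells by at least 1 on the log2 scale and 62 (18.7%) lower by as much. Of those without it, 1542 (16.3%) were higher and 1945 (20.6%) lower. For GAS the shares called higher were 19.6% of 777 genes that held it and 16.4% of 9000 that did not. The median log2 difference was 0.037 with an ISRE core and -0.020 without. These shares are descriptions with no test, since the genes share samples and promoters differ in base composition.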
